A study of Mus musculus with 10 samples.

Results

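A small population of CD8 T cells was followed in mouse livers that carried metastases of colorectal cancer: cells with Gzmk transcripts and without transcripts of Pdcd1, the gene of PD-1. Membership was set by a rule on unique molecular identifier (UMI) counts, each UMI standing for 1 captured RNA molecule. A member was a barcode with at least 300 genes, at most 15% mitochondrial UMIs and a productive T cell receptor beta (TRB) chain. It had at least 2 UMIs of Cd8a and Cd8b1 together, at least 1 UMI of Gzmk, and no UMI of Cd4, Foxp3, Pdcd1, Havcr2 or Ccr7. Of 28039 barcodes, 27707 were kept, 6273 of these had a TRB chain, 2963 were in the CD8 gate (the rule without Gzmk, Pdcd1, Havcr2 and Ccr7), and 106 were members. The values of these 8 genes chose the members and are given as a description only.

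The members came from 5 livers in 3 treatment groups. The combination group, labelled IFNa + aCTLA4, was liver 22 alone, from mice given IFNa together with an antibody against CTLA-4. The IFNa group was livers 18 and 23, from mice given the lentiviral vector (LV) labelled IFNa LV. The Control group was livers 11 and 25, from mice given the control LV. The labels give no age, strain, dose, day, tumour line or promoter, nor the cells in which the vector is active. They do not say whether each liver was 1 animal, so a p-value here reflects how far these livers lay apart, and that distance may be technical in part. Livers were digested with enzymes, and viable single cells were sorted without antibodies, so no step selected T cells. The combination has 1 liver and no replicate of its own.

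CD8 T cells recognise peptides on major histocompatibility complex (MHC) class I molecules through their alpha-beta T cell receptor. Granzyme K, the product of Gzmk, is a protease of cytotoxic granules that is typical of effector memory CD8 T cells, cells that have met antigen and left the lymph node circuit. Ccr7 encodes the chemokine receptor that guides naive and central memory cells into lymph nodes. PD-1 and TIM-3, the products of Pdcd1 and Havcr2, are inhibitory receptors, and cells with both are common among T cells under lasting antigen exposure in tumours. Interferon alpha acts through a receptor found on nearly all nucleated cells and switches on a broad set of antiviral genes. CTLA-4 is an inhibitory receptor of T cells that competes with CD28 for its ligands.

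The receptors of the members are shown first, since 1 beta chain links 7 of the 106 members to the rest of the CD8 gate and to other livers. The largest member clonotype, with 5 members, was in the combination liver and used TRBV16 and TRBJ2-7. Trbv16 lies at chr6:41151740-41152230 on the plus strand and Trbj2-7 at chr6:41543810-41543856 on the plus strand, in GRCm38 (mm10). Its complementarity-determining region 3 (CDR3), the part of the chain made by joining of gene segments, is 45 bases long and encodes 15 residues. Chains with the same TRBV16 and TRBJ2-7 segments and the same translation were read in 319 cells of 4 livers, of which 7 were members, through 6 different nucleotide sequences. Capitals below mark the bases that differ from the combination sequence, counted from 1 at the 5′ end of the CDR3, and substitutions give the combination base first.
Combination liver 22: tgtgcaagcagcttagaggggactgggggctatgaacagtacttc
IFNa livers 18 and 23: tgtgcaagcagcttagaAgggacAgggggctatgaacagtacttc
IFNa livers 18 and 23 and combination liver 22: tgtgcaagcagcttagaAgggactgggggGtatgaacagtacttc
IFNa liver 23, the third form: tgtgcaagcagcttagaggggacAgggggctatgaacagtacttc
IFNa liver 23, the fourth form: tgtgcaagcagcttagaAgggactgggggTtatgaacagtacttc
Control liver 11: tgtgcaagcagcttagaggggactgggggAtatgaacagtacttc
The combination form was read in 78 cells, with 5 members, 13 cells with Gzmk and Pdcd1 and 32 with Pdcd1 and Havcr2. The form with G18A and T24A was read in 169 cells of IFNa liver 23, with 2 members, and in 13 cells of IFNa liver 18, with none. The form with G18A and C30G was read in 9 cells of the combination liver and in 16 and 4 cells of IFNa livers 18 and 23. The remaining forms carried T24A (18 cells), G18A with C30T (8 cells) and C30A (4 cells). All substitutions lay at the third base of codons 6, 8 and 10. The forms were chosen for the same translation, so a substitution that changes a residue could not appear here.

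A pair of member clonotypes read in 1 liver each, chosen after their values were seen, are shown for contrast in clone size. The first, from TRBV13-3 and TRBJ2-1, belonged to 258 cells of the combination liver, of which 4 were members, 32 had Gzmk with Pdcd1 and 156 had Pdcd1 with Havcr2. The second, from TRBV15 and TRBJ1-1, belonged to 3 cells of the combination liver, and all 3 were members.
TRBV13-3 clonotype: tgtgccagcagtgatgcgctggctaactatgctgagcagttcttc
TRBV15 clonotype: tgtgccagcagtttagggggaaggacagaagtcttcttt
Over all livers the 106 members held 90 clonotypes, defined by V segment, J segment and CDR3 nucleotides. An alpha chain was read in 92 members. The invariant alpha chains of natural killer T cells (TRAV11 with TRAJ18) and of mucosal-associated invariant T cells (TRAV1 with TRAJ33) were each found in 0 of these 92 members.

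Library totals ran from 10464216 to 69856071 UMIs. The members numbered 56 in the combination liver, 11 and 16 in IFNa livers 18 and 23, and 12 and 11 in Control livers 11 and 25. Their median depth was 5209 UMIs in the combination, 5585 and 5832.5 UMIs in IFNa, and 9054 and 13804 UMIs in Control, so Control members held more UMIs each. The whole CD8 gate had medians of 7639 UMIs in the combination, 7393 and 8583 UMIs in IFNa, and 7336 and 8957.5 UMIs in Control. All 8 T cell markers (such as Cd3e, Trac and Lck) had UMIs in the members of every liver. The defining markers Cd8a, Cd8b1, Gzmk and Ccl5 summed to between 115 and 193 UMIs per 10000. Hepatocyte markers summed to at most 1 UMI per liver. Macrophage markers summed to at most 3.45 UMIs per 10000, in Control liver 11. NK cell markers, some of which effector CD8 T cells also express, summed to 10.2 UMIs per 10000 in the combination, 2.17 and 1.82 in IFNa, and 7.38 and 0.728 in Control, and 14 of 56, 3 of 11, 4 of 16, 7 of 12 and 2 of 11 members had at least 2 of their UMIs. B cell markers summed to 0.0827 UMIs per 10000 in the combination, 3.77 and 0.395 in IFNa, and 0.192 and 0 in Control. Among B cells, which should lack the gene and in which Ccl5 had a UMI in 2.47% to 16.2% of cells, 0.631% had a Gzmk UMI in the combination liver, 0.0654% and 0.25% in IFNa, and 0.238% and 0 of 162 cells in Control, which allows up to 1.85%. B cell median depths were 4974 UMIs, 3962.5 and 4506 UMIs, and 3803 and 5404.5 UMIs in the same order of livers. Of the kept barcodes, 384 occurred in more than 1 library, 3 members among them, and none shared a TRB chain across libraries.

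Single UMIs decided much of the gate. The cells outside by Gzmk alone numbered 359, by Pdcd1 alone 247 (64 of them with 1 Pdcd1 UMI), by Havcr2 alone 31, by Ccr7 alone 19 and by Cd8a with Cd8b1 alone 17 (7 of them 1 UMI short). Inside the gate, 40 members had 1 Gzmk UMI and 66 had at least 2. A count of 0 Pdcd1 UMIs at this depth does not show that a cell lacked PD-1. Of the members, 5 in the combination, 3 and 2 in IFNa and 1 and 1 in Control were doublet candidates, by a further TRB chain or by transcripts of other cell types. The name effector memory rests on Gzmk, Ccl5 and the absence of Ccr7, and no surface protein was measured.

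The share of members in the CD8 gate was alike in 4 of the livers and much higher in Control liver 25. It was 3.04% in the combination liver (56 of 1845 cells, 95% exact binomial interval 2.30 to 3.92%). In IFNa livers 18 and 23 it was 3.56% (11 of 309, 1.79 to 6.28%) and 3.18% (16 of 503, 1.83 to 5.11%). In Control liver 11 it was 4.44% (12 of 270, 2.32 to 7.63%), and in Control liver 25 it was 30.6% (11 of 36, 16.3 to 48.1%). Control liver 25 therefore stood apart, on 36 CD8 cells with the deepest members. The IFNa mean was 3.37% and the Control mean 17.5%, a log2 ratio of -2.38 (two-sided exact permutation p = 0.333, the smallest that 2 against 2 livers can give). Without Control liver 25 the ratio was -0.40, and without Control liver 11 it was -3.18. For the combination against Control the log2 ratio was -2.53, and -0.55 without Control liver 25, with no test. Intervals cover counting error only.

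Since the gate reads single UMIs, every cell was also thinned to 2000 UMIs, with shallower cells left out (36 CD8 cells in the combination, 1 and 7 in IFNa, 1 and 0 in Control). The members then made up 6.55% of the CD8 gate in the combination, 3.36% and 6.30% in IFNa, and 7.61% and 18.8% in Control. Thinning moves cells into the gate when their only Pdcd1, Havcr2 or Ccr7 UMIs are lost. Of all kept cells, members were 0.587% in the combination, 0.177% and 0.289% in IFNa, and 0.215% and 1.30% in Control. On that denominator the combination was above both IFNa livers, at a log2 ratio of 1.33 to their mean, while within the CD8 gate the ratio was -0.15, and 0.44 after thinning, so no direction was settled.

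**Figure D1:**
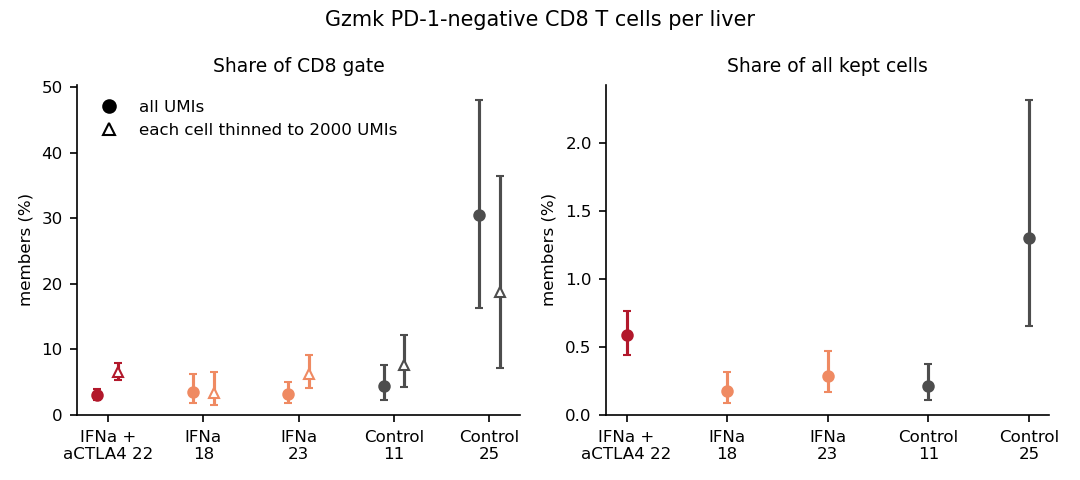
Members as a percentage of the CD8 gate (left) and of all kept cells (right), 1 value per liver with 95% exact binomial intervals. Filled circles use all UMIs and open triangles cells thinned to 2000 UMIs; Control liver 25 stands above the others at 30.6% of the CD8 gate, and the other 4 livers lie between 3.04% and 4.44%.

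For each liver the UMIs of all members were summed and are given as CPM, the UMIs of a gene per 1000000 UMIs, scaled with edgeR's trimmed mean of M values (TMM). In such sums, fewer cells with a transcript and less RNA per cell cannot be told apart. Gzmk itself, which the rule used, stood at 480.0 CPM in the combination, 364 and 655 CPM in IFNa, and 516 and 427 CPM in Control. Among the effector genes, Ccl5, a chemokine that draws T cells and monocytes and 1 of the markers that named the population, stood at 15158 CPM in the combination, 9162 and 14427 CPM in IFNa, and 13924 and 17833 CPM in Control. Nkg7, a cytotoxic granule protein, was even across the livers, at 2296 CPM in the combination, 2181 and 2016 CPM in IFNa, and 2145 and 1898 CPM in Control. Gzma, a granzyme, was the most uneven of these between the Control livers, at 1943 CPM in the combination, 1672 and 1792 CPM in IFNa, and 314 and 4049 CPM in Control. Control liver 11 was lowest and Control liver 25 highest for Gzma, with the other livers between them. The same order of the Control livers was seen for Gzmb, another granzyme, at 937 CPM in the combination, 814 and 904 CPM in IFNa, and 415 and 1079 CPM in Control. Klrg1, a receptor of terminally differentiated effector cells, likewise stood at 67.8 CPM in the combination, 102 and 66.4 CPM in IFNa, and 20.2 and 224 CPM in Control. Tbx21, the gene of the effector transcription factor T-bet, was lowest in Control liver 11 too, at 240.0 CPM in the combination, 102 and 199 CPM in IFNa, and 30.4 and 287 CPM in Control.

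Among genes of circulation and residency, Cd69 alone of the 5 below separated the treated livers from Control. Klf2, a transcription factor of circulating T cells, stood at 649 CPM in the combination, 479.9 and 697 CPM in IFNa, and 243 and 813 CPM in Control. S1pr1, the receptor with which T cells leave tissue, stood at 175 CPM in the combination, 116 and 91.3 CPM in IFNa, and 60.7 and 203 CPM in Control. Control livers 11 and 25 held the lowest and the highest value of both genes. Cxcr6, a chemokine receptor of liver-resident T cells, was highest in the combination, at 542 CPM in the combination, 218 and 183 CPM in IFNa, and 243 and 147 CPM in Control. Itgae, the integrin subunit CD103 of resident cells, was low throughout, at 45.2 CPM in the combination, 29.1 and 8.30 CPM in IFNa, and 20.2 and 0 CPM in Control. Cd69, an activation and residency receptor, was higher in both Control livers than in the other livers, at 316 CPM in the combination, 218 and 249 CPM in IFNa, and 465 and 490.3 CPM in Control, a difference that did not pass the test below (adjusted p = 0.514 for IFNa against Control in edgeR).

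Memory and inhibitory genes were read at low levels in every liver. Tcf7, the gene of the memory transcription factor TCF-1, stood at 181 CPM in the combination, 160.0 and 133 CPM in IFNa, and 101 and 70.04 CPM in Control. Il7r, the receptor of the survival cytokine interleukin-7, stood at 234 CPM in the combination, 72.7 and 66.4 CPM in IFNa, and 50.6 and 91.1 CPM in Control. The combination was highest for both genes. Among the inhibitory receptor genes, Lag3 stood at 67.8 CPM in the combination, 102 and 33.2 CPM in IFNa, and 20.2 and 21.01 CPM in Control, and Ctla4, the target of the antibody in the combination, at 212 CPM in the combination, 131 and 49.8 CPM in IFNa, and 50.6 and 105 CPM in Control. Tox, a transcription factor of lasting stimulation, stood at 164 CPM in the combination, 393 and 207 CPM in IFNa, and 253 and 42.03 CPM in Control. Ifng, the gene of interferon gamma, differed widely between the livers of each pair, at 107 CPM in the combination, 319.9 and 33.2 CPM in IFNa, and 20.2 and 259 CPM in Control. These values rest on few UMIs: 38 in the combination, 22 and 4 in IFNa, and 2 and 37 in Control. Ifng was read in 19 of 56 members in the combination, 2 of 11 and 4 of 16 in IFNa, and 2 of 12 and 9 of 11 in Control. The Lag3 values of Control came from 2 and 3 UMIs. Over the 5 livers, Ccl4 ran over 332 to 734 CPM, Ccl3 over 70.04 to 233 CPM, Prf1 over 50.6 to 169 CPM, Eomes over 56.03 to 202 CPM, Cxcr3 over 241 to 364 CPM, Cd44 over 102 to 233 CPM, Cx3cr1 over 14.5 to 107 CPM, Itga1 over 7.00 to 91.3 CPM and Tigit over 28.02 to 155 CPM.

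Proliferation differed between the IFNa livers and was alike in the Control livers. Mki67, a marker of cycling cells, stood at 81.9 CPM in the combination, 14.5 and 324 CPM in IFNa, and 415 and 308 CPM in Control. The 14.5 CPM of IFNa liver 18 was 1 UMI. Members with at least 2 UMIs of the cycling genes numbered 5 of 56 in the combination, 0 of 11 and 5 of 16 in IFNa, and 4 of 12 and 2 of 11 in Control. IFNa liver 18 was low on both counts, apart from the other IFNa liver. The 19 proliferation genes summed to 19.1 UMIs per 10000 in the combination, 5.51 and 58.0 in IFNa, and 42.4 and 38.8 in Control. Cycling members were deeper than the others, with median depths of 10397 against 4939 UMIs in the combination.

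Against the Control members, the IFNa members had higher levels of genes of the type I interferon response. Ifi27l2a, a small interferon-induced membrane protein, Ly6a, the surface protein Sca-1, and Isg15, a ubiquitin-like modifier, were among 20 genes that were higher, and 6 genes were lower. Together these 26 of 6688 genes tested were 0.389% (edgeR quasi-likelihood test on summed counts, Benjamini-Hochberg adjusted p under 0.05). The higher calls were 0.299% and the lower calls 0.0897% of genes tested. Of 57 measured members of the type I interferon list, 13 passed as higher and 0 as lower, 55 had a log2 fold change above 0, and the list's median was 1.66, beside -0.05 over all genes tested. The list was compiled with earlier results of these data known.

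For the 5 interferon genes described first, the treated livers lay apart from Control with no overlap. Ifi27l2a had 5365 CPM in the combination liver and 5933 and 6935 CPM in the IFNa livers, against 1295 and 841 CPM in the Control livers. IFNa exceeded Control for Ifi27l2a by a log2 fold change of 2.60 ± 0.21 (SE, edgeR adjusted p = 5.27e-08). Ly6a had 1754 CPM in the combination liver and 1367 and 1784 CPM in the IFNa livers, against 283 and 273 CPM in the Control livers, a log2 fold change of 2.51 ± 0.27 (adjusted p = 6.23e-06). Both IFNa livers lay several-fold above both Control livers for these genes, and the combination liver lay beside them. Isg15 had 499.8 CPM in the combination liver and 524 and 929 CPM in the IFNa livers, against 132 and 35.02 CPM in the Control livers, a log2 fold change of 3.23 ± 0.45 (adjusted p = 2.82e-04). Rtp4, an interferon-induced chaperone of membrane receptors, had 463 CPM in the combination liver and 436 and 506 CPM in the IFNa livers, against 70.8 and 35.02 CPM in the Control livers, with 3.21 ± 0.44 on the log2 scale (adjusted p = 2.71e-04). Oas1a, an enzyme that senses double-stranded RNA, had 141 CPM in the combination liver and 204 and 241 CPM in the IFNa livers, against 10.1 and 7.00 CPM in the Control livers, with 4.63 ± 0.69 (adjusted p = 6.47e-04). The lowest treated liver was above the highest Control liver for each of the 5 genes. The naming of called genes asked in part for no overlap between IFNa and Control livers, so the separation of those groups is description only. Ifi27l2a, Ly6a, Isg15, Rtp4 and Oas1a also passed under every alternative that gave an adjusted p, with each liver left out in turn among them.

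Regulators of the interferon pathway were among the higher genes. Irf7, a transcription factor that amplifies interferon production, had 534 CPM in the combination liver and 479.9 and 498 CPM in the IFNa livers, against 132 and 35.02 CPM in the Control livers, with a log2 fold change of 2.64 ± 0.45 for IFNa over Control (edgeR adjusted p = 0.00348). Ly6c2, a surface protein of memory and effector CD8 T cells that responds to interferon, had 2954 CPM in the combination liver and 3068 and 4082 CPM in the IFNa livers, against 1599 and 2136 CPM in the Control livers, with 0.94 ± 0.21 (adjusted p = 0.0439). The difference in Ly6c2 was smaller than that in Irf7. Irf7 passed in 11 of 12 alternatives and Ly6c2 in 6 of 12, with adjusted p up to 0.534 and 0.996. Usp18, the protease that removes ISG15 and damps the receptor, had 322 CPM in the combination liver and 262 and 216 CPM in the IFNa livers, against 50.6 and 0 CPM in the Control livers, with 3.41 ± 0.69 (adjusted p = 0.0200). Bst2, the virus tether tetherin, passed at 1.81 ± 0.38, Ifi213 at 2.23 ± 0.43 and Slfn1, a T cell growth regulator, at 1.84 ± 0.40. Oasl2 had no UMI in either Control liver and was at least 6.53-fold higher in IFNa, against a floor of 3 UMIs over the Control group. Usp18 passed in 6 of 11 alternatives and Oasl2 in 5 of 11. Ifit3, an RNA-binding antiviral protein, did not pass, with 404 CPM in the combination liver and 407 and 315 CPM in the IFNa livers, against 202 and 7.00 CPM in the Control livers and adjusted p = 0.419.

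Outside the type I list, Plac8 passed at 1.94 ± 0.27, Rnf213, a large ubiquitin ligase, at 2.22 ± 0.41, and Ly6e, a surface protein that restricts viruses, at 1.13 ± 0.24 on the log2 scale in edgeR. The guanylate-binding protein gene Gbp6 was the 1 of 17 measured interferon-gamma-inducible genes that passed, at 2.76 ± 0.59, and 16 of the 17 had a log2 fold change above 0. Gbp10 and Gm12253 had no UMI in either Control liver and were at least 6.09-fold and at least 9.58-fold higher in IFNa. A330040F15Rik passed at 3.16 ± 0.68. None of the 18 MHC class I and peptide loading genes passed. Their median was 0.39 on the log2 scale, and 16 were above 0.

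The genes lower in IFNa members were Cmss1, Cdk8, Il31ra, Gm19951, Camk1d and Gphn. Cmss1 had 5416 CPM in the combination liver and 2923 and 4895 CPM in the IFNa livers, against 11314 and 10219 CPM in the Control livers, with a log2 fold change of -1.46 ± 0.19 (edgeR adjusted p = 2.30e-04). Cdk8, a kinase of the Mediator complex, had 8189 CPM in the combination liver and 4609.9 and 6711 CPM in the IFNa livers, against 16576 and 10499.5 CPM in the Control livers, with -1.25 ± 0.20 (adjusted p = 0.00111). Il31ra, a cytokine receptor subunit, had 1011 CPM in the combination liver and 596 and 747 CPM in the IFNa livers, against 2085 and 1625 CPM in the Control livers. Both Control livers exceeded both IFNa livers for the 3 genes, a separation that the naming of called genes asked for in part. The combination liver lay in between. Gm19951 passed at -1.79 ± 0.33, Camk1d, a calmodulin-dependent kinase, at -1.38 ± 0.26, and Gphn, the scaffold gephyrin, at -1.29 ± 0.27. Control members were also deeper, with medians of 9054 and 13804 UMIs against 5585 and 5832.5 UMIs in IFNa, and the part of depth in these lower genes was not tested. In Control liver 11, Cdk8 stood above even Ccl5 (13924 CPM). Whether the UMIs of these lower genes came from their messenger RNA was not tested.

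No gene of the other lists passed between IFNa and Control in edgeR. This held for 15 cytotoxic effector, 8 cytokine and chemokine, 16 memory and naive, 22 effector memory, 11 residency, 16 exhaustion, 7 NK receptor, 19 proliferation and 16 dissociation stress genes. Over all 6688 genes, 301 had an unadjusted p under 0.05, and DESeq2 called 16 genes. Leaving out 1 liver moved the count of called genes to 10 without IFNa liver 18, 15 without the combination, 58 without IFNa liver 23, 75 without Control liver 11 and 44 without Control liver 25. All 26 calls were kept without Control liver 11, 21 without IFNa liver 23, 15 without the combination, 15 without Control liver 25 and 9 without IFNa liver 18. B and plasma cell transcripts, with MHC class II among them, summed in members to 3.36 UMIs per 10000 in the combination, 23.05 and 5.61 in IFNa, and 47.8 and 1.72 in Control. Without the doublet candidates 15 genes were called, 8 of them in the type I list.

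**Figure D2:**
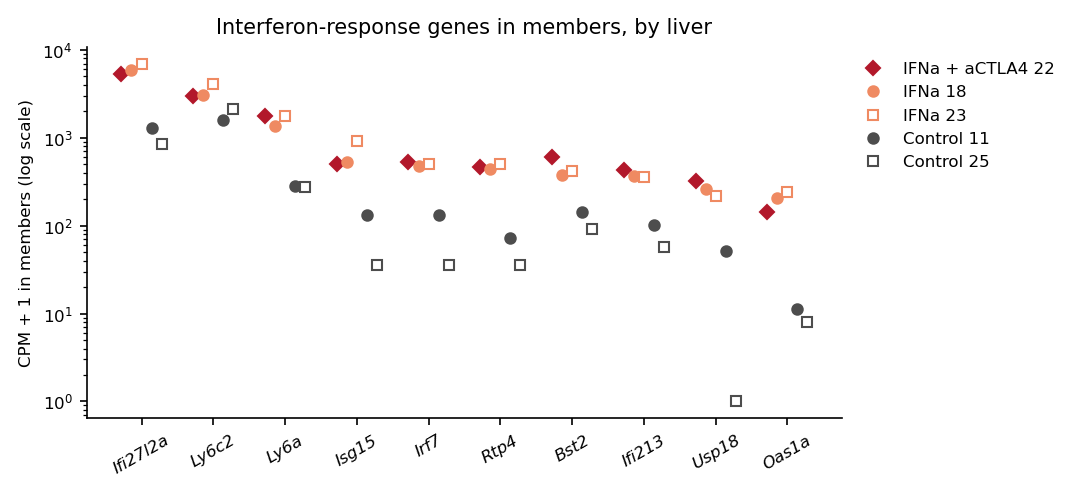
Levels of 10 called type I interferon genes in the members of each liver, as CPM + 1 on a log axis, with 1 point per liver. For Ifi27l2a, the combination and IFNa livers lie between 5365 and 6935 CPM and both Control livers at or below 1295 CPM.

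The members of the 1 combination liver held more RNA of the interferon genes named below than the members of both Control livers. The spread in this comparison is that of the IFNa and Control livers, since the combination has none of its own, so the calls describe liver 22 and not the treatment. In it 11 of 6688 genes passed (0.164%, edgeR), all higher, and 10 of them were in the type I interferon list. Of the list's 57 measured genes, 56 had a log2 fold change above 0, with a median of 1.54, beside -0.02 over all genes. The IFNa and combination comparisons use the same Control livers, so their lists are not independent. Ifi27l2a differed by 2.34 ± 0.23 (adjusted p = 3.49e-06), Ly6a by 2.65 ± 0.29 (adjusted p = 1.19e-05) and Rtp4 by 3.17 ± 0.47 (adjusted p = 8.31e-04). Bst2 differed by 2.39 ± 0.41, Irf7 by 2.77 ± 0.48, Usp18 by 3.86 ± 0.70, Ifi213 by 2.48 ± 0.45, Isg15 by 2.67 ± 0.49 and Oas1a by 3.96 ± 0.74. Leaving out 1 of the other livers moved the count to between 17 and 76: 17 without IFNa liver 18 (13 higher), 50 without IFNa liver 23 (30 higher), 76 without Control liver 11 (45 higher) and 49 without Control liver 25 (19 higher). DESeq2 called 2 genes, and without doublet candidates 6 of the 11 calls were kept.

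The remaining call was Trbv16, the V segment of the shared beta chain. It had 151 UMIs in the combination members and none in Control, and was at least 35.5-fold higher. Against IFNa, Trbv16 was the only gene called (0.015% of 6688 genes), with a log2 fold change of 4.71 ± 0.70 (edgeR adjusted p = 0.00533), again for the 1 combination liver. Trbv16 was not among the calls in DESeq2, without IFNa liver 23, without doublet candidates or with at least 2 Gzmk UMIs. In the CD8 gate a Trbv16 UMI was read in 478 of 478 cells whose receptor library gave TRBV16 and in 2.54% of the other 2485 cells, so these UMIs follow the receptor of each clone. TRBV16 was the beta segment of 11 of 56 members in the combination, 0 of 11 and 2 of 16 in IFNa, and 0 of 12 and 0 of 11 in Control. In the whole CD8 gate its share ran the other way between combination and IFNa, at 10.6% in the combination, 14.9% and 43.5% in IFNa, and 6.67% and 0% in Control. No gene of the type I interferon list passed between combination and IFNa, where its median was 0.01, beside 0.02 over all genes. DESeq2 called 0 genes there. The single call became 7 without IFNa liver 18, 5 without IFNa liver 23, 12 without Control liver 11 and 12 without Control liver 25.

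The members were then set beside 3 other gates of the same CD8 cells: 247 cells with Gzmk and Pdcd1 (and no Havcr2 or Ccr7), 896 cells with Pdcd1 and Havcr2, and 635 cells with Ccr7 (and no Gzmk, Pdcd1 or Havcr2). Another 1079 CD8 cells fell in none of these. Sums per liver and gate were compared in edgeR with the liver as a block. The rule divided the cells by their own transcripts, so the differences below describe the cells that the gates hold, and the counts of genes past the threshold support nothing. The 8 genes of the rule are left out of the counts. CPM were scaled within each comparison.

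Beside the cells with Gzmk and Pdcd1, the members held less RNA of several inhibitory and activation receptors and more of a few single genes, Ccl5 and Ly6c2 among them. This comparison used 4 livers, since Control liver 25 had 2 cells with Gzmk and Pdcd1, and values are given for the combination, IFNa 18, IFNa 23 and Control 11 in turn. Of 9199 genes, 65 were past the threshold (0.707%), 9 higher (0.0978%) and 56 lower (0.609%). Lag3, an inhibitory receptor that binds MHC class II, stood at 68.01, 96.1, 32.7 and 19.9 CPM in members against 338, 419, 325 and 107 CPM in the other cells, a log2 difference of -2.47 ± 0.30 (adjusted p = 5.43e-10). Rgs16, a regulator of G-protein signals, stood at 42.5, 0, 8.18 and 0 CPM in members against 324, 96.6, 257 and 76.2 CPM, a difference of -3.46 ± 0.38 (adjusted p = 3.07e-11). Members were lower in all 4 livers for both genes, which also stayed past the threshold under every alternative. Of 18 measured exhaustion genes, 6 were lower: besides Lag3, these were Rbpj (-2.07 ± 0.32), the costimulatory receptor gene Tnfrsf9 (-2.04 ± 0.34), Tigit (-1.21 ± 0.28), Ctla4 (-1.08 ± 0.28) and the transcription factor gene Tox (-0.99 ± 0.22). Their list's median was -0.98, beside -0.01 over all genes.

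Of 15 residency genes, 5 were lower in members than in Gzmk Pdcd1 cells. They were the chemokine gene Xcl1 (-2.34 ± 0.41), the immediate early receptors Nr4a1 (-1.45 ± 0.30) and Nr4a2 (-1.23 ± 0.28), Rgs1, which restrains migration (-1.04 ± 0.22), and Cxcr6 (-0.95 ± 0.22). Xcl1 was not lower in every liver, at 39.7, 27.5, 32.7 and 9.96 CPM in members against 327, 129, 29.98 and 0 CPM. Ccl5 was higher in all 4 livers, at 15211, 8649.8, 14227 and 13705 CPM in members against 9210.2, 5411, 12210.1 and 10804 CPM, a difference of 0.49 ± 0.09. Ly6c2 was higher in all 4 livers too, at 2964, 2897, 4025 and 1574 CPM in members against 1559, 902, 2266 and 1409.5 CPM, a difference of 0.88 ± 0.14. Klf2 was higher by 1.09 ± 0.23, in 3 of the 4 livers, at 652, 453, 687 and 239 CPM in members against 256, 177, 201 and 312 CPM. S1pr5, a receptor of circulating effector cells, was higher by 3.26 ± 0.72, also in 3 livers. Klf2 was past the threshold in 5 of 10 alternatives, Ly6c2 in 6 of 10 and S1pr5 in 6 of 8. No cytotoxic effector gene of 15, and no proliferation gene of 19, was past the threshold. Of 20 dissociation stress genes, 0 were past it and 1 had a log2 difference above 0, with a median of -0.54.

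Transcripts of other cells also differed between these gates. The myeloid gene Lyz2 stood at 42.5, 96.1, 0 and 129 CPM in members against 371, 1176, 21.4 and 1097 CPM, and the B cell and plasma cell genes Igkc and Jchain were lower too. Their part in the other differences was not tested. The number of genes past the threshold was 9 without the combination, 26 without IFNa liver 18, 43 without IFNa liver 23 and 77 without Control liver 11. It was 7 in DESeq2 and 2 with no replicate block.

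Beside the cells with Pdcd1 and Havcr2, the members held more RNA of several genes of circulating and memory cells and less of most exhaustion genes. Of 12293 genes, 12.8% were past the threshold (449 higher, 3.65%, and 1130 lower, 9.19%), and the values are means over 5 livers unless each liver is given. Control liver 25 held only 4 Pdcd1 Havcr2 cells. S1pr1 stood at 167, 105, 88.3, 55.3 and 191 CPM in members against 6.95, 0, 6.24, 8.20 and 8.90 CPM in the livers in the order combination, IFNa 18, IFNa 23, Control 11 and Control 25, a log2 difference of 4.25 ± 0.36. Tcf7, the transcription factor TCF-1 of memory and stem-like cells, stood at 121 CPM in members against 8.94 CPM (3.60 ± 0.33), and its partner Lef1 at 179.6 CPM in members against 28.3 CPM (2.66 ± 0.27). Klf2 averaged 543 CPM in members against 84.5 CPM (2.60 ± 0.20). Of 18 memory and naive genes, 8 were higher and 1 lower, with a median of 0.60 beside -0.18 over all genes.

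Effector genes divided into those of members and those of Pdcd1 Havcr2 cells. Higher in members were Ccl5, at 13239 CPM in members against 3586 CPM (1.91 ± 0.11), the granzyme gene Gzmm (4.11 ± 0.43), Klrg1 (3.28 ± 0.41), Eomes, a transcription factor of memory cells (1.99 ± 0.30), the chemokine receptor gene Cxcr3 (2.18 ± 0.22), Ly6c2 (2.14 ± 0.15) and Gzma (0.43 ± 0.15). Lower in members were the chemokine gene Ccl4, at 511 CPM in members against 2508 CPM (-1.88 ± 0.16), Ccl3 (-2.70 ± 0.20), the perforin gene Prf1, at 125 CPM in members against 484 CPM (-1.72 ± 0.21), Ifng (-1.49 ± 0.22) and Gzmb (-0.44 ± 0.16). Gzma was past the threshold in 4 of 11 alternatives and Gzmb in 2 of 11, with adjusted p up to 0.824 and 0.814. Gzma was not higher in every liver: in Control liver 11 members were far below the Pdcd1 Havcr2 cells. Of 16 cytotoxic effector genes, 3 were higher and 7 lower. Of 12 cytokine and chemokine genes, 1 was higher and 6 lower. The chemokine gene Ccl1 and the granzyme gene Gzmc had no UMI in members and were at least 119.9-fold and at least 48.1-fold lower.

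Of 19 exhaustion genes, 14 were lower in members than in Pdcd1 Havcr2 cells and 0 higher, with a median of -1.63. Tnfrsf9 stood at 53.9, 26.3, 32.1, 18.4 and 6.59 CPM in members against 673, 868, 935, 815 and 320.5 CPM in the same order of livers, a difference of -4.46 ± 0.24. Lag3 averaged 45.4 CPM in members against 478 CPM (-3.44 ± 0.24), Ctla4 103 CPM in members against 376 CPM (-1.92 ± 0.22) and Tox 196 CPM in members against 520.2 CPM (-1.50 ± 0.19). Of 15 residency genes, 10 were lower and 1, Cd69, was higher (1.00 ± 0.20). Of 20 dissociation stress genes, 15 were lower, Fos and Jun among them, and of 13 myeloid genes 11 were lower. The myeloid genes summed to 9.87 UMIs per 10000 in combination members, 3.04 and 2.92 in IFNa members, and 12.8 and 2.18 in Control members, against 31.4, 43.8 and 39.6, and 63.8 and 41.4 in the Pdcd1 Havcr2 cells of the same livers. B and plasma cell transcripts, with MHC class II among them, summed to 3.36 UMIs per 10000 in combination members, 23.05 and 5.61 in IFNa members, and 47.8 and 1.72 in Control members, against 84.5, 61.95 and 94.8, and 102.7 and 82.1 in the Pdcd1 Havcr2 cells, and 8 of 14 of these genes were lower. Hepatocyte transcripts summed to at most 0.790 UMIs per 10000 in members, against 1.53 to 22.1 in the Pdcd1 Havcr2 cells. Erythroid transcripts summed to at most 0.383 in members and reached 53.1 in the Pdcd1 Havcr2 cells of Control liver 11. The part of these transcripts in the other differences was not tested. Without doublet candidates 869 genes were past the threshold, and 863 in DESeq2.

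Beside the Ccr7 cells, the members held more RNA of effector and cell cycle genes and less of naive and memory genes. Of 10750 genes, 10.5% were past the threshold (517 higher, 4.81%, and 608 lower, 5.66%). Gzma stood at 1809, 1401, 1595, 278 and 3584 CPM in members against 123, 90.1, 132, 10.5 and 663 CPM in the order combination, IFNa 18, IFNa 23, Control 11 and Control 25, a log2 difference of 3.59 ± 0.15. Gzmb averaged 737 CPM in members against 77.9 CPM (3.17 ± 0.18), Ccl5 12552 CPM in members against 1614 CPM (3.04 ± 0.10) and Ifng 129 CPM in members against 10.4 CPM (3.07 ± 0.34). Klrg1 averaged 84.8 CPM in members against 0.537 CPM (5.96 ± 0.60). Of 23 effector memory genes 15 were higher, with Zeb2 (2.64 ± 0.24), Id2 (2.36 ± 0.19) and the integrin gene Itgb1 (2.37 ± 0.18) among them, of 15 cytotoxic effector genes 9, and of 19 proliferation genes 16, Mki67 by 3.25 ± 0.30.

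Of 18 memory and naive genes, 14 were lower in members than in Ccr7 cells. Il7r, the interleukin-7 receptor, stood at 218, 60.9, 59.1, 44.9 and 80.6 CPM in members against 502, 828, 534, 903 and 747 CPM, a difference of -2.70 ± 0.19. Tcf7 averaged 114 CPM in members against 764 CPM (-2.68 ± 0.18), the chromatin organiser Satb1 70.9 CPM in members against 700.3 CPM (-3.16 ± 0.20) and Igfbp4, an insulin-like growth factor binding protein, 1.48 CPM in members against 256 CPM (-7.37 ± 0.49). Klf2 was lower too (-1.10 ± 0.15), so its level in members lay between those of Ccr7 cells and Pdcd1 Havcr2 cells. DESeq2 put 644 genes past the threshold, 56.8% of them higher, against 46.0% higher in edgeR. In the same order of livers, myeloid transcripts summed to 9.87, 3.04, 2.92, 12.8 and 2.18 UMIs per 10000 in members. In Ccr7 cells they summed to 6.79, 4.58, 12.2, 48.5 and 4.45. B and plasma cell transcripts summed to 3.36, 23.05, 5.61, 47.8 and 1.72 in members, against 21.8, 9.44, 19.2, 5.37 and 2.86 in Ccr7 cells. The part of these transcripts in the other differences was not tested.

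**Figure D3:**
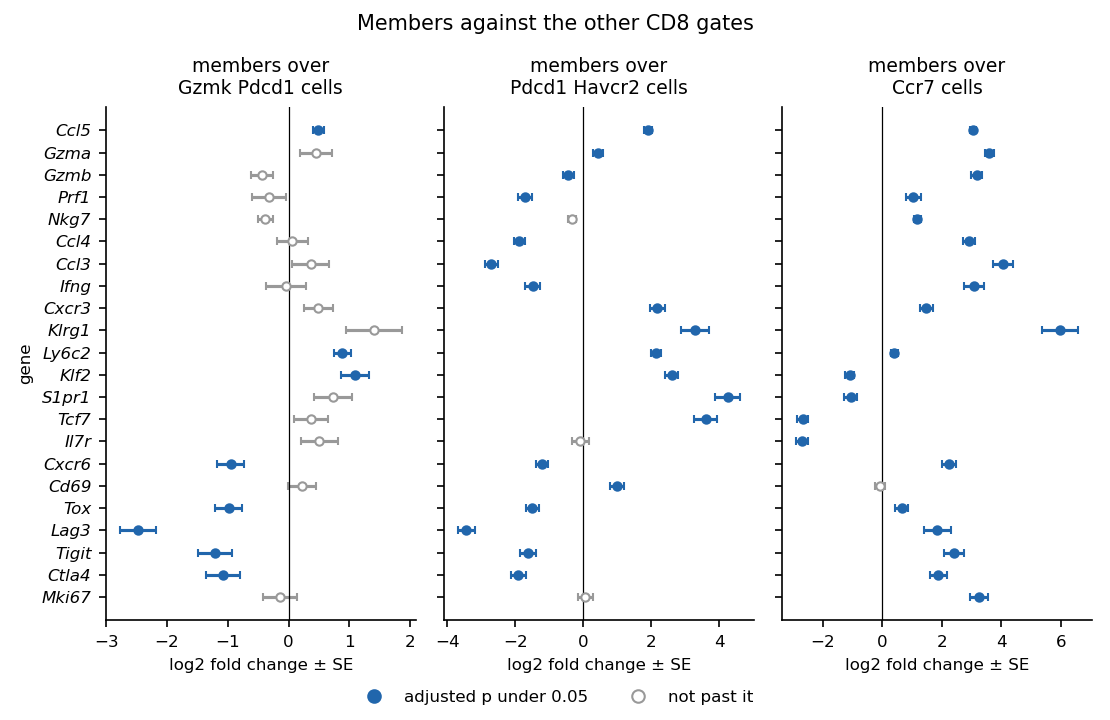
Log2 fold change ± SE of 22 genes in members over Gzmk Pdcd1 cells (left), Pdcd1 Havcr2 cells (middle) and Ccr7 cells (right), with filled blue points past an adjusted p of 0.05 in edgeR and open grey points not past it. Lag3 lies at -2.47 against Gzmk Pdcd1 cells and -3.44 against Pdcd1 Havcr2 cells, and Gzma at 3.59 against Ccr7 cells.

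Whether the IFNa effect differed between members and Pdcd1 Havcr2 cells was tested as an interaction in edgeR. It passed for 11 of 12293 genes (0.0895%), 6 with a higher signed log2 effect in members (0.0488%) and 5 with a lower one (0.0407%). Of 58 type I interferon genes, 1 passed, Ly6c2, and the list's median difference was 0.05, beside -0.12 over all genes. In the order combination, IFNa 18, IFNa 23, Control 11 and Control 25, Ly6c2 stood at 2821, 2777, 3949.9, 1456 and 2011 CPM in members and 1457, 1001, 995, 257 and 8.90 CPM in Pdcd1 Havcr2 cells. Its IFNa effect was smaller in members by a log2 difference of -1.92 ± 0.39 (adjusted p = 0.00131). Gzma stood at 1855, 1513, 1734, 286 and 3811 CPM in members and 1158, 502, 1119.9, 1553 and 2003 CPM in Pdcd1 Havcr2 cells. The signed IFNa effect on Gzma was higher in members by 1.68 ± 0.38 (adjusted p = 0.0137). In Pdcd1 Havcr2 cells both IFNa livers were below both Control livers for Gzma. In members both IFNa livers lay between the Control livers. The Control livers lay far apart for Gzma in members and for Ly6c2 in Pdcd1 Havcr2 cells. The Pdcd1 Havcr2 values of Control liver 25 came from 4 cells, so its 8.90 CPM of Ly6c2 rests on very few UMIs. Ly6c2 passed in 6 of 10 alternatives and Gzma in 4 of 10. Another 5 of the 11 were receptor V segments, and DESeq2 called 0 of the 12293 genes. In edgeR, leaving out 1 liver gave between 7 and 33.

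Many members belonged to expanded clonotypes, taken as those with at least 2 cells in the same liver. The share was 73.2% in the combination (41 of 56 members), 27.3% (3 of 11) and 62.5% (10 of 16) in IFNa, and 41.7% (5 of 12) and 9.09% (1 of 11) in Control. The livers of each group were far apart. The IFNa mean was 44.9 ± 24.9% and the Control mean 25.4 ± 23.03% (SD, n = 2 each), a difference of 19.5 percentage points (two-sided exact permutation p = 0.667). The combination lay 47.8 points above the Control mean, with no test. When clone size was counted among members only, that difference was 23.8 points. The CD8 gate held 1845 cells in the combination, 309 and 503 in IFNa, and 270 and 36 in Control, and the part of this number in the shares was not tested.

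Members were less expanded than Pdcd1 Havcr2 cells and more than Ccr7 cells in all 5 livers. In Pdcd1 Havcr2 cells the expanded share was 98.4% in the combination, 79.4% and 97.9% in IFNa, and 91.3% and 25% in Control. In Ccr7 cells it was 7.42% in the combination, 6.88% and 1.20% in IFNa, and 1.60% and 0% in Control. In Control liver 25 the order rested on 1 of 4 Pdcd1 Havcr2 cells, 1 of 11 members and 0 of 11 Ccr7 cells. Members differed from Pdcd1 Havcr2 cells by a mean of -35.7 points and from Ccr7 cells by 39.3 points, each with the smallest exact paired permutation p that 5 livers can give (0.0938 after Benjamini-Hochberg adjustment over 3 gates). Without Control liver 25 the mean differences were -40.6 and 46.9 points. Gzmk Pdcd1 cells held 86.3% in the combination, 57.1% and 75.9% in IFNa, and 68.4% and 0% in Control. Members were below them in 4 livers and above them in Control liver 25, where only 2 Gzmk Pdcd1 cells were read. The mean difference was -14.8 points (exact paired permutation p = 0.125).

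Members shared clonotypes with the Pdcd1 gates in some livers and not in others. In the combination, 35 of 56 members (62.5%) had a clonotype also read in Gzmk Pdcd1 or Pdcd1 Havcr2 cells. In IFNa the numbers were 0 of 11 in liver 18 and 10 of 16 (62.5%) in liver 23, and in Control 2 of 12 (16.7%) in liver 11 and 0 of 11 in liver 25. Clonotypes shared with Ccr7 cells were rarer, with 5 members in the combination, 0 and 2 in IFNa, and 0 and 0 in Control. So the livers with many sharing members were combination liver 22 and IFNa liver 23, which also held the largest clones, of 258 and 169 cells. The same livers held the most cells of the Pdcd1 gates. Gzmk Pdcd1 cells numbered 190 in the combination, 7 and 29 in IFNa, and 19 and 2 in Control. Pdcd1 Havcr2 cells numbered 620 in the combination, 34 and 192 in IFNa, and 46 and 4 in Control. The part of these numbers in the sharing was not tested.

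Within the combination liver, the 35 sharing members and the other 21 differed in some transcripts. Ccl4 made up 13.1 UMIs per 10000 in sharing members against 0.963 in the others, Cxcr6 8.01 against 2.44, Ctla4 3.39 against 0.68, and Gzma 12.7 against 25.6. Sharing members were shallower, with a median of 4217 against 8531 UMIs. In IFNa liver 23, with 10 sharing members and 6 others, the order was different for Cxcr6, at 1.47 against 2.54, and for Gzma, at 21.9 against 2.54. There Ctla4 was also in the other order, at 0.421 against 0.634, and Ccl4 was level, at 3.16 against 3.17. These are values of 1 library each, from members of shared clones, and carry no test.

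The shared TRBV16 beta chain made up 4.55% of the CD8 gate in the combination, 9.39% and 38.2% in IFNa, and 1.11% and 0% in Control, where 0 of 36 cells in liver 25 allows up to 8.33%. Among members it was read in 5 of 56 in the combination, 0 of 11 and 2 of 16 in IFNa, and 0 of 12 and 0 of 11 in Control. Its alpha partners differed between livers and forms. Of its cells with an alpha chain, 73 of 79 (92.4%) used TRAJ22 in the combination, 10 of 29 (34.5%) and 184 of 186 (98.9%) in IFNa, and 2 of 2 in Control liver 11. Among other CD8 cells TRAJ22 was used by 19.3% in the combination, 7.36% and 8.82% in IFNa, and 7.69% and 6.25% in Control. The V segment of the alpha chain varied by nucleotide form. The commonest alpha chain used TRAV7-4 in 72 of 72 cells of the combination form and in 18 of 18 cells of the T24A form of IFNa liver 23. In the G18A and C30G form of IFNa liver 18 the commonest alpha chain joined TRAV7-4 to TRAJ24, in 12 of 16 cells. TRAV14D-1 was found in 164 of 164 cells of the form with most cells in IFNa liver 23. Cells of 1 clonotype share their alpha chain, so these cells are not independent pairings. In all, 10 members carried 1 of 4 beta chain translations that were also read in another liver.

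**Figure D4:**
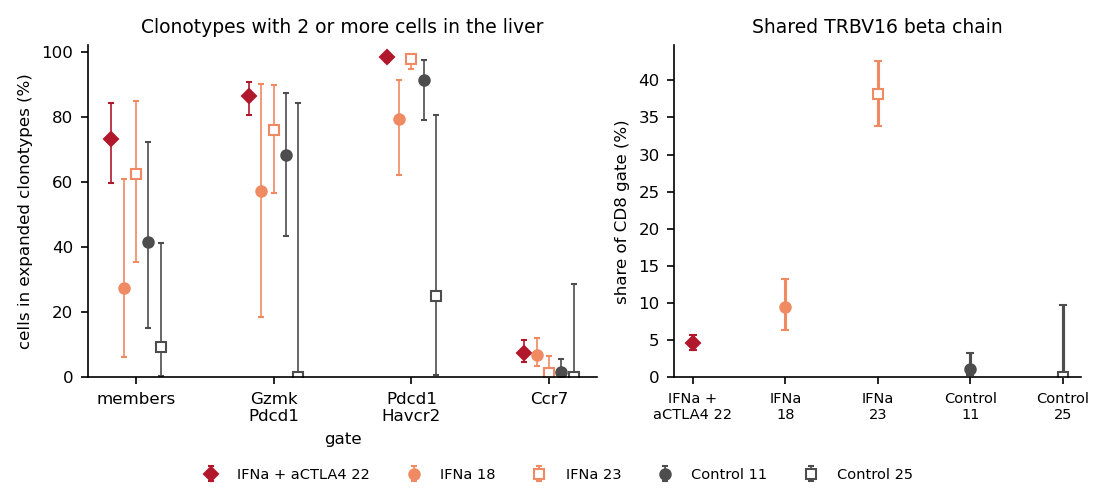
Left, percentage of cells in clonotypes with 2 or more cells in the same liver, by gate, with 1 point per liver and 95% exact binomial intervals. Right, the shared TRBV16 beta chain as a percentage of the CD8 gate of each liver; it reaches 38.2% in IFNa liver 23 and 0% in Control liver 25.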

How the data were processed

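Gene expression and T cell receptor V(D)J libraries of the same 5 livers were analysed, joined by liver number. The values deposited for gene expression are unnormalised UMI counts for each gene in each barcode, and those for receptors are read and UMI counts of contigs. The authors made both with Cell Ranger 7.0.1 and the build mm10, according to the submitters' processing notes and per the file headers. Aligner settings and the annotation used are not given in the sources used here. Reads of overlapping genes or receptor segments may be shared between them.

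UMI counts of members were summed per liver. Genes with at least 3 UMIs in at least 2 sums and at least 15 UMIs in total were tested with edgeR 4.0.16 (limma 3.58.1, R 4.3.3): TMM scaling, quasi-likelihood test, all 3 groups in 1 fit, Benjamini-Hochberg adjustment over all genes tested, threshold 0.05. Gate comparisons had the liver as a block, because both sums came from the same liver, and needed at least 3 cells in each gate. DESeq2 1.42.0 was an alternative, with scaling, filters, gate, depth and doublet settings and each liver left out. Single values were compared by exact permutation over livers. Intervals are exact binomial (95%) and floors are 3 counts. Clonotypes are V segment, J segment and CDR3 nucleotides of the TRB contig with most UMIs. Gene coordinates come from GENCODE M21 (GRCm38). Doublet candidates had at least 2 different TRB chains, at least 2 UMIs of markers of other cells or at least 5 UMIs of Alb, and stayed in unless stated. The markers, summed together, were Cd79a, Ms4a1, Lyz2, C1qa, S100a8, Epcam and Krt18.

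On simulated counts 200 genes were changed, of which 185 (changed 4-fold) and 190 (changed 8-fold) passed the filter on counts and were tested. The IFNa against Control fit recovered 35.1% and 68.9% of these tested genes, with 2 and 4 false calls. Named genes were a fixed panel, up to 10 called genes each way with at least 50 CPM and no overlap, and up to 4 genes per list with the smallest p; results for some of these are not reported here, and other called genes were named after their values were seen. Members, gene lists and tests were chosen with earlier results of these data known.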

Additional observations from a re-analysis of the deposited data

Results flagged for a closer look

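The 11 genes below are those whose IFNa effect (log2, IFNa over Control) differed between members and Pdcd1 Havcr2 cells in the interaction test of edgeR, given as the effect in members minus that in the other cells. CPM are in the order combination, IFNa 18, IFNa 23, Control 11 and Control 25.

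Receptor V segments made up 5 of the 11. Trbv13-3 had 167, 289.5, 0, 9.21 and 0 CPM in members and 293, 0, 30.4, 47.8 and 187 CPM in Pdcd1 Havcr2 cells, and an effect difference of 7.23. Trbv29 had 108, 658, 136, 0 and 191 CPM in members and 60.7, 0, 5.41, 28.7 and 0 CPM in Pdcd1 Havcr2 cells, and an effect difference of 4.38. Trbv3 had 138, 184, 120.4, 350.1 and 0 CPM in members and 104, 106, 27.9, 0 and 0 CPM in Pdcd1 Havcr2 cells, and an effect difference of -10.13. Trav16n had 29.7, 0, 32.1, 64.5 and 19.8 CPM in members and 2.98, 2.21, 163, 0 and 0 CPM in Pdcd1 Havcr2 cells, and an effect difference of -11.55. Trav14n-3 had 0, 0, 0, 82.9 and 59.3 CPM in members and 42.95, 0, 40.4, 1.37 and 0 CPM in Pdcd1 Havcr2 cells, and an effect difference of -13.97. In each of these at least 1 liver and gate had no UMI, so the fitted differences depend on single livers and are no bound.

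Of the other genes, Ly6c2 had 2821, 2777, 3949.9, 1456 and 2011 CPM in members and 1457, 1001, 995, 257 and 8.90 CPM in Pdcd1 Havcr2 cells, and an effect difference of -1.92. Gzma had 1855, 1513, 1734, 286 and 3811 CPM in members and 1158, 502, 1119.9, 1553 and 2003 CPM in Pdcd1 Havcr2 cells, and an effect difference of 1.68, with the Control members at opposite ends of the range. Ifitm3 had 86.3, 26.3, 32.1, 350.1 and 0 CPM in members and 881, 959, 952, 1029 and 249 CPM in Pdcd1 Havcr2 cells, and an effect difference of -2.69; this is an interferon-induced membrane protein. Apoe had 2.70, 13.2, 56.2, 0 and 0 CPM in members and 97.9, 504, 429, 1647 and 2065 CPM in Pdcd1 Havcr2 cells, and an effect difference of 10.65; this is an apolipoprotein of hepatocytes and macrophages, listed here as a transcript of other cells. Gm42418 had 15903, 16989, 17895, 14566 and 15965 CPM in members and 12924, 19810.2, 14245, 21789 and 66468 CPM in Pdcd1 Havcr2 cells, and an effect difference of 1.37; this gene overlaps ribosomal RNA. Gm20628 had 18.9, 0, 650.3, 212 and 19.8 CPM in members and 36.5, 13.3, 22.9, 96.99 and 62.3 CPM in Pdcd1 Havcr2 cells, and an effect difference of 3.62. DESeq2 called none of the 11. Control liver 25 had 36 CD8 cells, with 11 members and 4 Pdcd1 Havcr2 cells, and the part of these low numbers in the 11 results was not tested.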

How the results depend on the processing

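Among 240 results for named genes, 2582 alternatives gave a value. The direction and the side of the threshold were kept in 2209, the direction alone in 360, and 13 changed sign. For IFNa against Control the called genes numbered 16 in DESeq2, 49 with no filter on low counts, 9 with at least 2 Gzmk UMIs, 15 without doublet candidates, and 10 to 75 with 1 liver left out. For the combination against Control they numbered 2 in DESeq2, 47 with no filter, 2 with at least 2 Gzmk UMIs, and 17 to 76 with 1 liver left out. For the combination against IFNa they numbered 0 in DESeq2, 12 with no filter, 0 with at least 2 Gzmk UMIs, and 5 to 12 with 1 liver left out. Members against Gzmk Pdcd1 cells gave 7 in DESeq2 and 9 to 77 with 1 liver left out. Members against Pdcd1 Havcr2 cells gave 863 in DESeq2, 869 without doublet candidates and 1165 to 1433 with 1 liver left out. Members against Ccr7 cells gave 644 in DESeq2 and 755 to 965 with 1 liver left out. The interaction gave 0 in DESeq2 and 7 to 33 with 1 liver left out. Except where fewer samples or genes entered, the cause was not tested.

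With no replicate block, members differed from Gzmk Pdcd1 cells in 2 genes, from Pdcd1 Havcr2 cells in 1196 and from Ccr7 cells in 1012. No paired analysis was possible because the treatment groups share no liver number, so between treatments there was no pairing to use.

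The log2 ratio of member shares for IFNa against Control ranged over -3.18 to -0.40 with 1 liver left out. For the combination against Control it ranged over -3.33 to -0.55, and was -0.37 among kept cells and -1.01 after thinning. For the combination against IFNa it was 1.33 among kept cells. Counting members only, the combination exceeded Control in expanded clonotypes by 23.8 points. Without doublet candidates the sign changed for Jchain against Gzmk Pdcd1 cells (0.35) and Lyz2 against Pdcd1 Havcr2 cells (0.22). Lyz2 is among the markers that set the candidates, so its change was fixed in part by that definition. The sign also changed for Jchain (0.83) and Igkc (1.35) against Ccr7 cells, and for the interaction of Trbv13-3 (-2.35). In DESeq2 it changed for S100a9 (0.44) and Jchain (1.32) against Ccr7 cells. With 1 liver left out it changed for Igkc against Ccr7 cells without the combination (range -2.08 to 1.23), for the interaction of Gm20628 without IFNa 23 (range -7.57 to 5.78), of Trbv13-3 without IFNa 18 (range -3.57 to 16.36), and of Trbv3 (range -10.84 to 1.40), Trbv29 (range -5.36 to 14.26) and Ifitm3 (range -3.47 to 6.45) without Control 11.

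Depth limits all of this: 11 to 56 members per liver hold 68982 to 362583 UMIs, so genes at a few CPM could not be tested, and 1 UMI decided the gate of many cells.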
